A study of Mus musculus with 4 samples.

Results

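The hypoxia-inducible factor (HIF) pathway was followed here through 10 genes, in RNA recovered with an RNA-binding protein (RBP) antibody from mouse early erythroid progenitors. The genes are the HIF subunits Hif1a, Epas1 and Arnt, the oxygen-sensing hydroxylases Egln1, Egln2, Egln3 and Hif1an, the ubiquitin ligase subunit Vhl, the HIF antagonist Cited2 and the growth factor Vegfa. They were chosen by symbol, as every probe set annotated with exactly 1 gene symbol among these names. All 10 were present with 1 probe set each, that is 10 of the 35556 probe sets on the array and 10 of the 19938 genes with a probe set of their own. By limma at an adjusted p under 0.05, 6 of the 10 mRNAs were called higher in RBP than in control IgG immunoprecipitates. Cited2 was the 1 called lower. Of all genes, 23.8% were called higher and 6.54% lower. Egln1 differed most of the 10, by 4.17-fold.

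Of the 4 arrays, 2 held RNA precipitated with the RBP antibody and 2 held RNA precipitated with control rabbit IgG. All 4 came from lysed early erythroid progenitors of C57BL/6 fetal liver at embryonic day 14.5 (E14.5), sorted as c-Kit-positive cells with low CD71 once cells with CD34, CD41, CD16/32, Sca-1 or markers of mature blood lineages had been removed. The labels leave the protein unnamed, and ZFP36L2, a tristetraprolin family protein that binds AU-rich elements of mRNAs, is assumed from knowledge of the published work without a check of the antibody. Whether the 2 arrays of each antibody represent independent cell preparations or pools of embryos is not stated, so the p-values cover only array-to-array spread, possibly technical.

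HIF is a pair of basic helix-loop-helix proteins, an oxygen-regulated alpha subunit and the constant partner ARNT, that binds DNA at a short core and switches on genes for glycolysis, iron handling, erythropoietin and blood vessel growth. In oxygen, prolyl hydroxylases mark the alpha subunit, VHL then brings it to a ubiquitin ligase, and an asparaginyl hydroxylase blocks its contact with the coactivators CBP and p300. The pathway is best known in red cell biology for setting erythropoietin production. Fetal liver progenitors grow in a low-oxygen tissue and respond to that hormone.

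The levels are log2 values, made by the authors with RMA, and a difference of 1 is a 2-fold change. Each level is the RNA recovered by a precipitation. No array of the lysate was used here, so recovery by the antibody and abundance in the cells cannot be told apart, nor can fewer cells of a type and less RNA per cell. The median level over all probe sets was 5.57 and 5.62 on the RBP arrays and 5.85 and 5.93 on the IgG arrays, while the interquartile range was 3.73 and 3.61 with RBP, wider than the 2.91 and 2.87 with IgG. A background level of 5.36 was taken as the 95th percentile of 1240 chemosensory receptor genes, whose products serve smell, pheromone sensing and taste. All 10 HIF genes had a mean level above it, Epas1 only just. All 12 early erythroid markers lay above it too, with summed linear levels of 18630 and 20227 on the RBP arrays against 12490 and 13909 on the IgG arrays. The sums over all genes were also higher with RBP, at 5622620 and 5597470 against 4115120 and 3984410 with IgG. The 11 hepatocyte markers measured summed to 995 and 702 on the RBP arrays and 915 and 705 on the IgG arrays, and 7 of the 11 exceeded the background level. No probe set carried an adult globin symbol alone, so those markers of later erythroblasts were not analysed here.

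**Figure D1:**
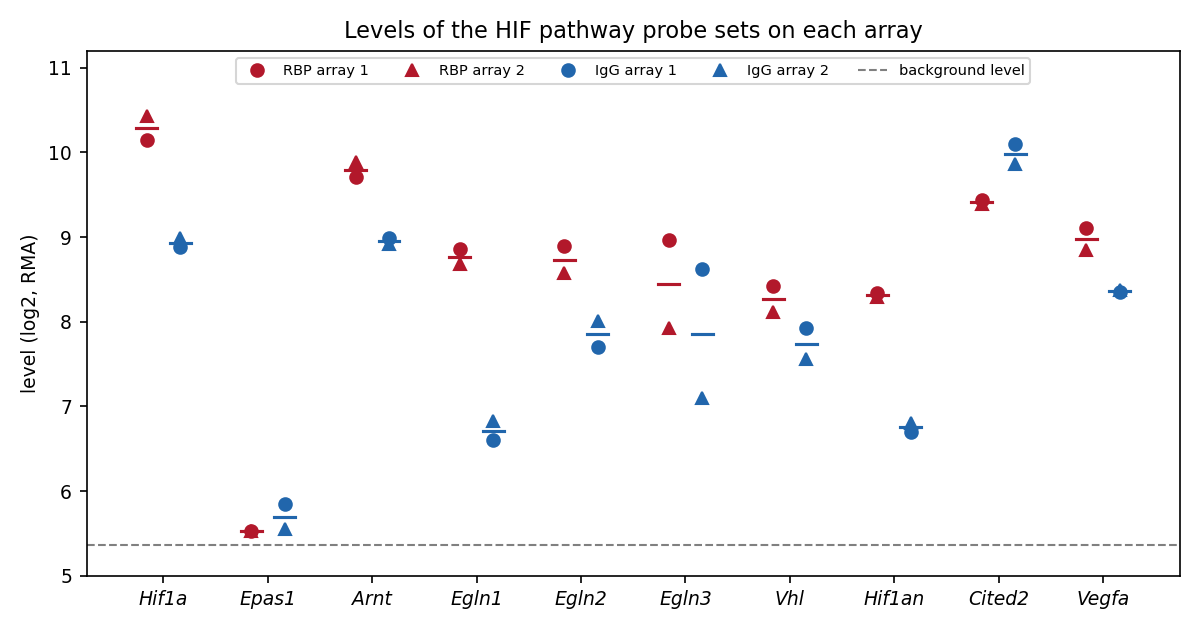
Log2 level of each HIF pathway probe set (y axis) on the 2 RBP arrays (red) and the 2 IgG arrays (blue), with array 1 as circles, array 2 as triangles, the group mean as a short line and the background level of 5.36 as a dashed line. Levels of different probe sets are not comparable with each other. Both RBP arrays lie above both IgG arrays for 7 genes and below them for Epas1 and Cited2, and only for Egln3 do the groups overlap.

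The comparison of RBP with IgG arrays asked which of these transcripts the antibody recovered beyond the control. By limma, with p-values adjusted by Benjamini-Hochberg over all 19938 genes, 6 of the 10 HIF genes were called higher at an adjusted p under 0.05, where 23.8% of all genes and 36.5% of the 12828 genes above background were called higher. Cited2 was the 1 gene called lower, where 6.54% of all genes and also 6.54% of those above background were. Epas1, Egln3 and Vhl did not pass. The groups did not overlap with RBP higher for 7 of the 10 (37.4% of all genes) and with RBP lower for 2 of the 10 (36.2% of all genes). The median difference was 0.73 over the 10 genes, 0.40 over genes above background and -0.02 over all genes. An exact two-sided permutation test of 2 arrays against 2 cannot give a p below 0.333, so every call rests on the variance that limma shares across genes.

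The differences on these arrays depended on level, since most genes of middle and high level were higher with RBP. Each HIF gene is therefore also set beside the genes within 0.25 log2 units of its own mean level, called here genes of like level. On that scale 6 of the 10 differences lay above the median of genes of like level and 4 below it. The share of genes of like level called higher was 4.24% for Epas1. For the other HIF genes it ran from 47.5% (Hif1an) to 59.5% (Vegfa), so 6 of 10 called higher was near the share of such genes.

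**Figure D2:**
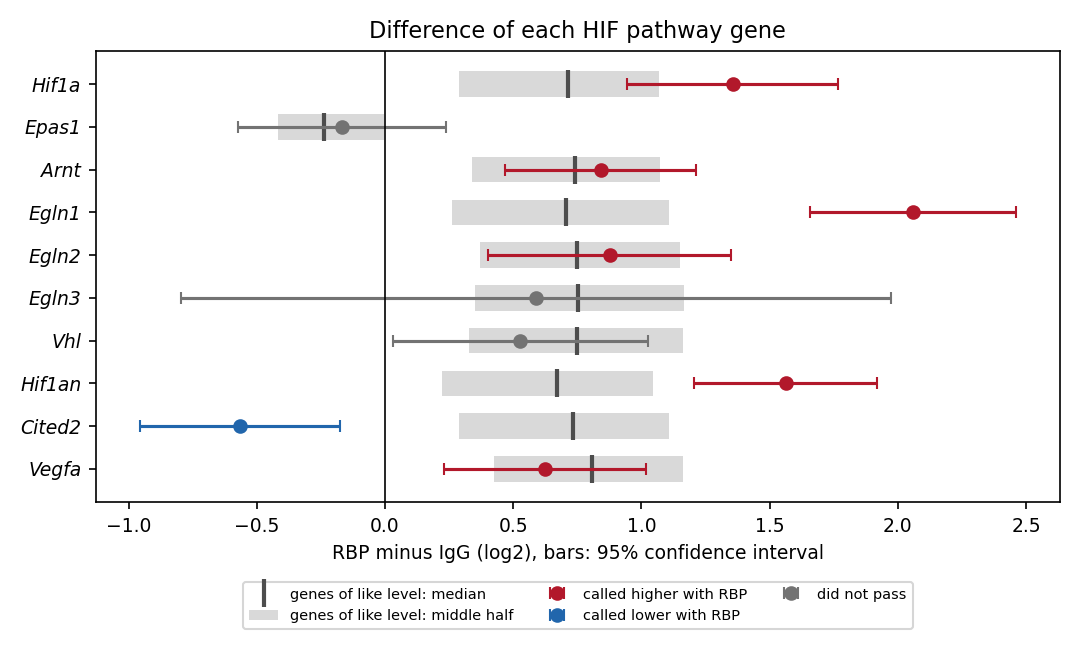
Difference of each gene, RBP minus IgG, on the log2 scale (x axis), with its 95% confidence interval from limma. Red points were called higher, the blue point was called lower and grey points did not pass. Grey bars span the middle 50% of genes of like level and a dark tick marks their median. Egln1, Hif1an and Hif1a lie to the right of the grey bar and Cited2 to its left.

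Hif1a, Egln1 and Hif1an formed the upper end of the pathway's differences and Cited2 the lower end. The promoters of these 4 genes are shown because ACGTG is a form of the core that the HIF pair binds. Other forms of the core were not searched for or marked. The array measured RNA and not binding, so a match is a description of the sequence. Both strands were searched for ACGTG from 250 bases before to 50 bases after the transcription start, and matches are in capitals. Where a match on each strand overlaps, the capitals read CACGTG. The sequences are from RefSeq on GRCm38.p6, written 5′ to 3′ on the strand of the gene, at chr12:73907617-73907916 (plus strand) for Hif1a, chr8:124949205-124949504 (minus strand) for Egln1, chr19:44562604-44562903 (plus strand) for Hif1an and chr10:17722978-17723277 (plus strand) for Cited2.
Hif1a: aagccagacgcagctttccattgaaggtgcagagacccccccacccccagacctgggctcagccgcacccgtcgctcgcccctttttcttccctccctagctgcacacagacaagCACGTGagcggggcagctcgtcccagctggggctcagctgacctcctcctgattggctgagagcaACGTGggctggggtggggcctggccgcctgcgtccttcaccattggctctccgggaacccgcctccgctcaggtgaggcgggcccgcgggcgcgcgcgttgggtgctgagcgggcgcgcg
Egln1: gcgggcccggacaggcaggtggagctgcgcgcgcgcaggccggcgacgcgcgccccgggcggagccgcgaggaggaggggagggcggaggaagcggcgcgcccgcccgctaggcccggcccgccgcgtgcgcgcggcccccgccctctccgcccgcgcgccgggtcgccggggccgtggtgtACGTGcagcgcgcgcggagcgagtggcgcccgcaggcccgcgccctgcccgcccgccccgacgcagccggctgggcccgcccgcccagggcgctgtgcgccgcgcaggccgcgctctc
Hif1an: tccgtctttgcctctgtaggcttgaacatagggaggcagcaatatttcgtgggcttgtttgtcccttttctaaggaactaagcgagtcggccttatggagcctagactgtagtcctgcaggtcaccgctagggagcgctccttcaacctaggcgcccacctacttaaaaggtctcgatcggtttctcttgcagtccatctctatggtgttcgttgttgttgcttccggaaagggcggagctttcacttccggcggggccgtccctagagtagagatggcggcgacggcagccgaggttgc
Cited2: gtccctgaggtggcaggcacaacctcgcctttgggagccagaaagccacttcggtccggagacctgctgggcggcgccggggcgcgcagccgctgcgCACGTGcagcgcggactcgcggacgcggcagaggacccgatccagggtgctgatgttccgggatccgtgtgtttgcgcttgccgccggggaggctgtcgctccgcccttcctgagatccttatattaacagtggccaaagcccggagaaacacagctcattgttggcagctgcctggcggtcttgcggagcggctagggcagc
Egln1 had 1 match, starting 68 bases before the transcription start, in a promoter of 86.0% G and C. Hif1a had 1 match 70 bases before the start and an overlapping pair on both strands further upstream, Cited2 had an overlapping pair, and Hif1an had no match in this window. Of the 10 genes 9 had a promoter in the table, and 6 of these 9 held ACGTG in at least 1 listed promoter, against 21.8% of 27025 genes. By single promoters the share was 19.6% of 32851. The genes were not matched for G and C or for number of listed promoters, so these shares cannot show an enrichment. Vegfa had 2 listed promoters, and its match lay in that at chr17:46025114-46025413. This window falls inside the gene, which spans chr17:46016993-46032377. The window at the 5′ end of the gene, chr17:46032328-46032627, held none. Vegfa is among the 6 only through the match inside the gene.

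Hif1a encodes the alpha subunit that most cells use in acute hypoxia. Its probe set (10396421) read 10.15 and 10.43 on the RBP arrays and 8.88 and 8.99 on the IgG arrays. Both RBP arrays stood well above both IgG arrays, and the IgG pair differed little. The group means were 10.29 ± 0.20 and 8.94 ± 0.08 (SD, n = 2 each), a difference of 1.36 ± 0.17 (SE; limma, adjusted p = 0.00585) or 2.56-fold. Hif1a differed more than 92.5% of the 787 genes of like level, whose median difference was 0.71. Hif1a also passed in each of the 12 alternatives, with differences of 0.72 to 1.67 and an adjusted p of at most 0.0498.

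Epas1 encodes HIF-2 alpha, the alpha subunit of endothelial and erythropoietin-producing cells. Its probe set (10447317) read 5.53 and 5.53 on the RBP arrays and 5.84 and 5.55 on the IgG arrays, close to the background level throughout. The RBP arrays lay below both IgG arrays, though by only 0.02 log2 units from the nearer of them. The difference was -0.17 ± 0.16 (SE; limma, adjusted p = 0.449), and it turned positive with quantile normalization (0.14), with centring on the chemosensory genes (0.15) and with the trend on level removed (0.00467). Genes of like level had a median difference of -0.24. The 95% interval of the difference was -0.57 to 0.24.

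Arnt encodes the beta subunit shared by both alpha subunits and by the dioxin receptor. Probe set 10494238 read 9.70 and 9.88 on the RBP arrays and 8.98 and 8.92 on the IgG arrays, without overlap. The difference of 0.84 ± 0.15 (SE; limma, adjusted p = 0.0122), or 1.79-fold, lay near the median of 0.74 among 899 genes of like level. Arnt did not pass without RBP array 1 (0.93, adjusted p = 0.0720), without RBP array 2 (0.75, adjusted p = 0.113), with quantile normalization (0.34, adjusted p = 0.212) and with the trend on level removed (0.18, adjusted p = 0.496).

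The 3 prolyl hydroxylases use oxygen, iron and 2-oxoglutarate to hydroxylate HIF alpha subunits. Egln1 and Egln2 were called higher and Egln3 did not pass; the difference among the 3 was not tested. Egln1 encodes PHD2, the main oxygen sensor of most tissues. Its probe set (10582712) read 8.86 and 8.68 on the RBP arrays and 6.60 and 6.82 on the IgG arrays. The gap between the groups was several times the gap within either of them. The means were 8.77 ± 0.12 and 6.71 ± 0.16 (SD, n = 2 each), a difference of 2.06 ± 0.16 (SE; limma, adjusted p = 0.00558). Among 1270 genes of like level, 99.5% differed less than Egln1. Its call held in each of the 12 alternatives, with differences of 1.41 to 2.37 and an adjusted p of at most 0.0367.

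Egln2 encodes PHD1, an isoform found largely in the nucleus. Probe set 10561170 read 8.89 and 8.57 on the RBP arrays and 7.70 and 8.01 on the IgG arrays, without overlap. The difference was 0.88 ± 0.19 (SE; limma, adjusted p = 0.0218), with a 95% interval of 0.40 to 1.35; that of Egln1 was 1.66 to 2.46. Its call was lost without RBP array 1 (0.72, adjusted p = 0.163), without RBP array 2 (1.03, adjusted p = 0.0613), with quantile normalization (0.37, adjusted p = 0.266) and with the trend on level removed (0.16, adjusted p = 0.641). Genes of like level had a median difference of 0.75.

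Egln3 encodes PHD3, an isoform that HIF itself induces. Probe set 10400304 read 8.96 and 7.93 on the RBP arrays and 8.62 and 7.09 on the IgG arrays. Array 1 was the higher one in both groups, the groups overlapped, and the spread within groups was the widest of the 10 genes (SD 0.73 with RBP and 1.08 with IgG). The difference was 0.59 ± 0.56 (SE; limma, adjusted p = 0.439), with an interval of -0.80 to 1.98. Leaving out RBP array 1 gave 0.07, leaving out RBP array 2 gave 1.11, leaving out IgG array 1 gave 1.35, and leaving out IgG array 2 gave -0.17. With the trend on level removed the difference was -0.12.

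Many markers of other fetal liver cells, but not all, split by array number as Egln3 did. The hepatocyte gene Alb read 7.77 and 6.27 on the RBP arrays and 7.58 and 5.70 on the IgG arrays. Apoa2 went the other way, at 6.27 and 6.45 with RBP and 6.54 and 7.02 with IgG. Mean levels above background were found for 7 of 11 hepatocyte, 5 of 12 macrophage and 11 of 14 endothelial and stromal markers. Array 1 was the higher in both groups for 8 of 11 hepatocyte markers, 8 of 12 macrophage markers and 9 of 14 endothelial and stromal markers, for 3 of 12 early erythroid markers, for 3 of the 10 HIF genes (Egln3, Vhl and Cited2) and for 31.4% of all genes. The part of these cell types in the Egln3 values was not tested.

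Hif1an encodes FIH, the asparaginyl hydroxylase that blocks coactivator binding. Its probe set (10463380) read 8.34 and 8.29 on the RBP arrays and 6.70 and 6.81 on the IgG arrays. Replicates lay closer together than for most of the other genes, and the groups were far apart. The means were 8.31 ± 0.04 and 6.75 ± 0.08 (SD, n = 2 each), a difference of 1.56 ± 0.14 (SE; limma, adjusted p = 0.00558) or 2.95-fold. Of 1241 genes of like level 94.8% differed less, and Hif1an passed in each of the 12 alternatives with differences of 0.95 to 1.88 and an adjusted p of at most 0.0367. Hif1a, Egln1 and Hif1an were the 3 of the 10 that were at least 2-fold higher without overlap, as were 2690 of all 19938 genes.

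Vhl encodes the substrate receptor that recognises hydroxylated HIF alpha. Probe set 10540790 read 8.43 and 8.11 on the RBP arrays and 7.93 and 7.55 on the IgG arrays, so that both RBP arrays lay above both IgG arrays by a small margin. The difference of 0.53 ± 0.20 (SE; limma, adjusted p = 0.0967) did not pass, and it lay below the median of 0.75 among genes of like level. Vhl passed with chemosensory centring (0.84, adjusted p = 0.0160) and without IgG array 1 (0.72, adjusted p = 0.0437), and its difference was -0.16 with the trend on level removed.

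Cited2 encodes a transactivator that competes with HIF alpha for the same domain of CBP and p300, and it is itself a HIF target. Its probe set (10361828) read 9.43 and 9.39 on the RBP arrays and 10.10 and 9.86 on the IgG arrays. It was the only one of the 10 with a call in this direction. The difference was -0.57 ± 0.16 (SE; limma, adjusted p = 0.0433), or 1.48-fold lower with RBP. Only 4.65% of the 731 genes of like level had a lower difference, and their median was 0.73. The call was lost without RBP array 1 (-0.59, adjusted p = 0.233), without RBP array 2 (-0.55, adjusted p = 0.243), without IgG array 1 (-0.45, adjusted p = 0.0622) and with centring on the chemosensory genes (-0.25, adjusted p = 0.252). With quantile normalization (-1.001) and with the trend on level removed (-1.19) Cited2 was called lower by a larger amount.

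Vegfa encodes the vascular growth factor that is the pathway's best-known output, and its mRNA carries AU-rich elements of the kind that tristetraprolin family proteins bind. Probe set 10451198 read 9.11 and 8.85 on the RBP arrays and 8.34 and 8.37 on the IgG arrays, without overlap. The difference was 0.62 ± 0.16 (SE; limma, adjusted p = 0.0341) or 1.54-fold, and 37.3% of 1091 genes of like level differed less. Vegfa did not pass without RBP array 1 (0.49, adjusted p = 0.289), without RBP array 2 (0.75, adjusted p = 0.112), without IgG array 1 (0.61, adjusted p = 0.0523) and with quantile normalization (0.09, adjusted p = 0.766), and with the trend on level removed the difference was -0.09 (adjusted p = 0.747).

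**Figure D3:**
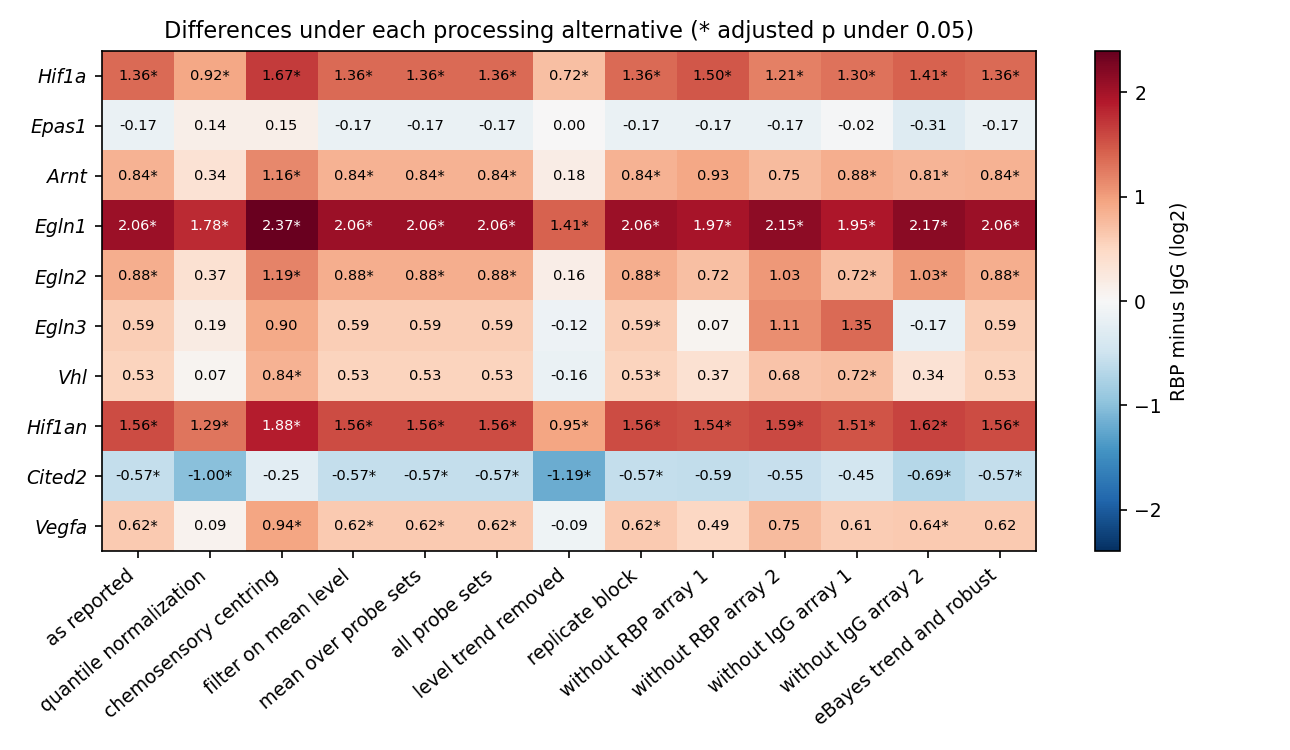
Difference of each gene, RBP minus IgG, on the log2 scale (colour and printed value), as reported and under each of the 12 processing alternatives (columns). An asterisk marks an adjusted p under 0.05 in limma. Hif1a, Egln1 and Hif1an carry an asterisk in every column, Epas1 in none, and Epas1, Egln3, Vhl and Vegfa change sign when the trend on level is removed.

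Array scaling shifted the median differences and the calls. The median difference of all genes was -0.02 as reported, 0.16 with quantile normalization and 0.29 with centring on the chemosensory genes. The median of the 10 HIF genes was 0.73, 0.27 and 1.05 in the same settings, and 0.08 with the trend on level removed. With quantile normalization 3 of the 10 were called higher (11.1% of all genes) and 1 lower (2.77%). With centring 7 were called higher (35.5% of all genes) and 0 lower (1.59%). With the trend removed 3 were called higher (5.63% of all genes) and 1 lower (5.09%). Without RBP array 1 the median of the 10 HIF genes was 0.61, and without RBP array 2 it was 0.89, beside -0.03 and -0.01 for all genes. Fewer of the 10 were called higher and Cited2 was not called in these 2 settings. Calls in both directions also fell over all genes.

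Of 33 genes that act on or with the HIF subunits, 30 had a probe set of their own, and of these 18 were called higher, 1 was called lower and 11 did not pass, beside 36.5% higher and 6.54% lower among all genes above background, where all 30 lay. The median difference was 0.68, against 0.40 for genes above background. The partner genes were not set beside genes of like level. The number called higher was 22 with chemosensory centring (35.5% of all genes). It was 6 with quantile normalization (11.1% of all genes) and 2 with the trend on level removed (5.63% of all genes). It also fell without RBP array 1 or 2, as did the number over all genes. Highest was Ireb2, an iron regulatory protein, at 9.75 and 9.92 on the RBP arrays against 8.09 and 8.08 on the IgG arrays (1.75 ± 0.15, SE). Mtor, a growth kinase that promotes HIF-1 alpha synthesis, differed by 1.39 ± 0.15. Aco1, the iron regulatory protein that represses translation of Epas1 mRNA, read 9.76 and 9.68 with RBP against 8.65 and 8.39 with IgG (1.20 ± 0.16), a call lost with quantile normalization (adjusted p = 0.0531) and with the trend removed (adjusted p = 0.103).

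Of the 4 other subunits of the VHL ubiquitin ligase, Cul2 and Eloc were called higher, and Elob and Rbx1 did not pass. Elob and Rbx1 had 2 probe sets each. The mean over probe sets gave -0.71 for Elob (limma, adjusted p = 0.0833) and 0.67 for Rbx1 (limma, adjusted p = 0.101). Cul2, the cullin scaffold, read 8.44 and 9.08 on the RBP arrays and 7.69 and 7.42 on the IgG arrays, a difference of 1.20 ± 0.25 (SE; limma, adjusted p = 0.0179) that did not pass without RBP array 2 (adjusted p = 0.0870), with quantile normalization (0.73, adjusted p = 0.123) or with the trend on level removed (0.49, adjusted p = 0.255). The adaptor Eloc, elongin C, differed by 0.73 ± 0.17 (adjusted p = 0.0262), but missed the threshold when RBP array 1 (adjusted p = 0.0807) or 2 (adjusted p = 0.208) was left out. Eloc differed by 0.20 with quantile normalization (adjusted p = 0.503) and by 0.03 with the trend removed (adjusted p = 0.933). Its partner Elob, elongin B, read 9.94 and 10.34 with RBP against 11.06 and 10.54 with IgG, a difference of -0.66 ± 0.24 (adjusted p = 0.0847). Elob was called lower without IgG array 2 (-0.92, adjusted p = 0.0311), with quantile normalization (-0.93, adjusted p = 0.0491) and with the trend on level removed (-1.15, adjusted p = 0.0394). The ring finger subunit Rbx1 differed by 0.54 ± 0.31 (adjusted p = 0.224), with overlapping groups, and passed without IgG array 1 (0.99, adjusted p = 0.0134).

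The coactivators that HIF and CITED2 share were both higher. Ep300, which encodes p300, differed by 1.02 ± 0.19 (SE; limma, adjusted p = 0.0136), and without RBP array 2 it did not pass (adjusted p = 0.0955). Crebbp, which encodes CBP, differed by 0.73 ± 0.16 (adjusted p = 0.0238), and it missed the threshold when RBP array 1 (adjusted p = 0.169) or 2 (adjusted p = 0.128) was left out. Neither passed with quantile normalization (0.73 for Ep300 and 0.57 for Crebbp, adjusted p = 0.0624 and 0.0818) or with the trend removed (0.50 and 0.31, adjusted p = 0.154 and 0.284). Cited1, a paralog of Cited2, was the 1 partner called lower, at 6.22 and 6.36 on the RBP arrays against 7.18 and 6.95 on the IgG arrays (-0.77 ± 0.16, adjusted p = 0.0189). That call did not hold on leaving out RBP array 1 (adjusted p = 0.161) or 2 (adjusted p = 0.0940), nor with centring (adjusted p = 0.0640). The third alpha subunit Hif3a differed by 0.35 ± 0.19 (adjusted p = 0.208), and by -0.03 with quantile normalization and -0.22 with the trend removed. It passed without IgG array 2 (0.55, adjusted p = 0.0479).

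Of 53 genes that HIF commonly induces, none of them among the 10, 50 were measured, 42 of them above background, and 21 were called higher, 1 lower and 28 did not pass (median difference 0.53). The share called higher was 42% of the 50 measured, beside 23.8% of all genes. All 21 called higher were among the 42 above background, where 36.5% of all such genes were called higher. The target genes were not set beside genes of like level. The number called higher was 27 with chemosensory centring (35.5% of all genes). It was 12 with quantile normalization (11.1% of all genes) and 5 with the trend on level removed (5.63% of all genes). It also fell without RBP array 1 or 2, as did the number over all genes. The 4 with the largest differences were Hk2, Gys1, Slc2a3 and Pdk1. Hk2, a hexokinase, read 9.57 and 8.77 on the RBP arrays and 7.24 and 7.41 on the IgG arrays (1.85 ± 0.28, SE), and did not pass with the trend on level removed (1.14, adjusted p = 0.0576). Gys1, muscle glycogen synthase, differed by 1.65 ± 0.18, the glucose transporter Slc2a3 by 1.62 ± 0.15, and Pdk1, the kinase that restrains pyruvate entry into mitochondria, by 1.49 ± 0.23, a call lost with quantile normalization (0.99, adjusted p = 0.0531) and with the trend removed (0.79, adjusted p = 0.0829).

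Among the other genes of glucose uptake and glycolysis in the list, some passed and some did not. Ldha, lactate dehydrogenase A, read 12.34 and 12.42 on the RBP arrays and 11.22 and 11.27 on the IgG arrays (1.13 ± 0.14, SE; limma, adjusted p = 0.00603). Pgk1, phosphoglycerate kinase, differed by 1.11 ± 0.17 and Slc2a1, a glucose transporter of many cell types, by 0.91 ± 0.14. Both just missed the threshold when RBP array 1 (adjusted p = 0.0530 and 0.0656) or 2 (adjusted p = 0.0526 and 0.0826) was left out. With the trend removed neither passed (0.57 and 0.34, adjusted p = 0.0824 and 0.188), and with quantile normalization Slc2a1 did not (0.55, adjusted p = 0.0665). The aldolases Aldoa (0.47, adjusted p = 0.0765) and Aldoc (-0.34, adjusted p = 0.142, below background) did not pass. Nor did the mutase Pgam1 (0.18, adjusted p = 0.420) and the hexokinase Hk1 (-0.26, adjusted p = 0.243). Pfkfb3 (1.35, adjusted p = 0.117) and Pfkfb4 (0.38, adjusted p = 0.118) also did not pass. Pfkl (1.44, adjusted p = 0.00666), Pfkp (1.12, adjusted p = 0.0113) and Tpi1 (1.01, adjusted p = 0.00773) were called higher. The genes from Aldoa to Tpi1 were named after their values were seen. Their differences under the alternatives are not given here. Of the mitophagy receptors 1 was called, with Bnip3 at 0.85 ± 0.21 (adjusted p = 0.0311) and Bnip3l, which clears mitochondria from maturing red cells, at -0.07 ± 0.19 (adjusted p = 0.806). Bnip3 did not pass when RBP array 1 (adjusted p = 0.123) or 2 (adjusted p = 0.147) was left out, with quantile normalization (0.54, adjusted p = 0.233) or with the trend removed (0.24, adjusted p = 0.516), and Bnip3l was positive with centring (0.25). Each receptor had 2 probe sets, and these values are of the 1 with the higher mean. With the mean over probe sets Bnip3 differed by 0.54 (limma, adjusted p = 0.0477) and Bnip3l by 0.000445. The difference between the 2 receptors was not tested.

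Epor, the erythropoietin receptor, differed by 0.87 ± 0.19 (SE; limma, adjusted p = 0.0210), and did not pass when RBP array 1 (adjusted p = 0.157) or 2 (adjusted p = 0.0674) was left out, with quantile normalization (0.46, adjusted p = 0.186) or with the trend removed (0.26, adjusted p = 0.414). Tfrc, the transferrin receptor, differed by 0.60 ± 0.18 (adjusted p = 0.0503), just short of the threshold. It passed with chemosensory centring (0.92, adjusted p = 0.0118), without IgG array 2 (0.72, adjusted p = 0.0356), with the filter on level (adjusted p = 0.0436) and with the trend and robust options (adjusted p = 0.0480), and its difference was 0.22 with quantile normalization (adjusted p = 0.471) and 0.03 with the trend on level removed (adjusted p = 0.930). Other iron and red cell targets in the list, named after their values were seen, did not pass: Trf, transferrin (0.46, adjusted p = 0.3001), Hmox1, heme oxygenase (-0.34, adjusted p = 0.286), and Epo, below background (-0.29, adjusted p = 0.253). Zfp36l1, a tristetraprolin family gene, was the 1 target called lower, at -0.91 ± 0.27 (adjusted p = 0.0493), a call lost without RBP array 1, RBP array 2 or IgG array 1 (adjusted p = 0.126, 0.193 and 0.0573). Its paralog Zfp36l2 differed by 0.76 ± 0.18 (adjusted p = 0.0255), which did not pass when RBP array 1 (adjusted p = 0.218) or 2 (adjusted p = 0.0654) was left out or with the trend removed (0.57, adjusted p = 0.0942), and Zfp36 by -0.38 ± 0.24 (adjusted p = 0.263).

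Of 9 other VEGF ligands and receptors, 0 passed in limma (0 at an unadjusted p under 0.05), and 7 had mean levels at or below background. The coreceptor Nrp1 read 6.41 and 5.61 on the RBP arrays and 5.57 and 5.05 on the IgG arrays (0.70 ± 0.31, SE; adjusted p = 0.142), and it passed with centring on the chemosensory genes (1.01, adjusted p = 0.0441). Pgf, placental growth factor, read 4.57 and 4.54 with RBP and 4.77 and 5.13 with IgG, all below background (-0.40 ± 0.18, adjusted p = 0.134). Pgf was called lower without IgG array 1 (-0.58, adjusted p = 0.0340).

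**Figure D4:**
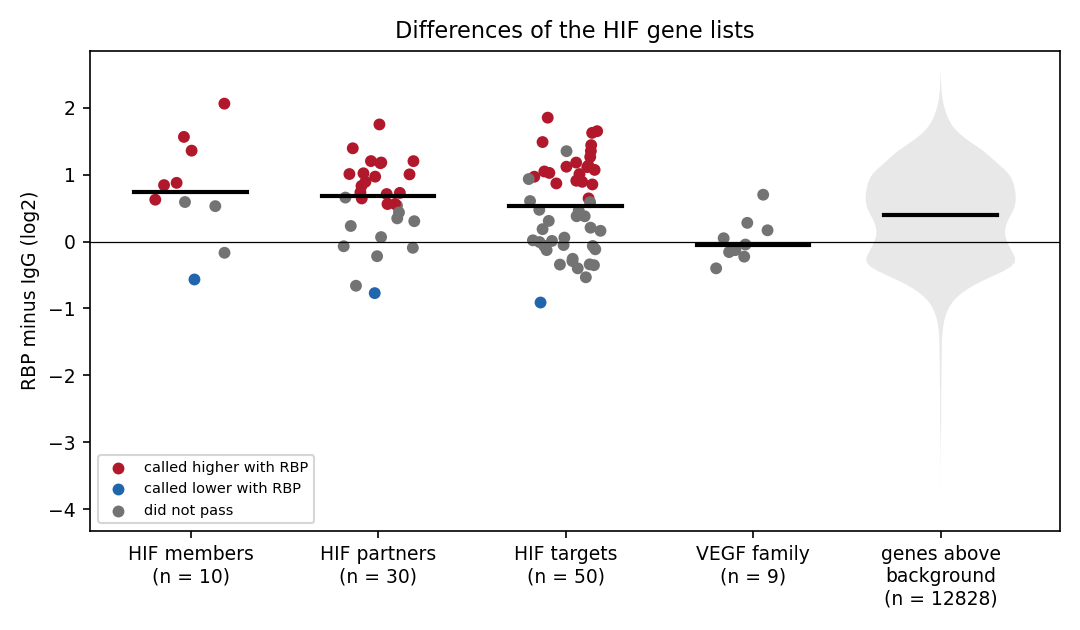
Difference of each gene, RBP minus IgG, on the log2 scale (y axis), for the 10 HIF pathway genes, 30 partner genes, 50 target genes and 9 VEGF family genes, with Pgf and Flt1 in both of the last 2 lists. Black lines are medians (0.73, 0.68, 0.53 and -0.05), and the violin shows all 12828 genes above background, with a median of 0.40. Red points were called higher, blue points lower, and grey points did not pass.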

How the data were processed

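RNA from 4 immunoprecipitates (2 RBP, 2 IgG, grouped by sample title) was measured on Affymetrix whole-transcript arrays. The deposited values are log2 levels, for which the submitters' processing notes name RMA and affy. Versions, the background step and the genome build were not given there or in the labels. That the scale is log2 follows from the range of 1.83 to 13.87 and the use of RMA. The platform annotation gave 1 gene symbol to 21789 of 35556 probe sets, several to 1621 and none to 12146; 21698 of the 21789 matched RefSeq (GRCm38.p6) by gene identifier, which changed 0 symbols. Each gene was represented by its probe set with the highest mean, with no filter on level. Differences were tested as RBP minus IgG, two-sided, with limma 3.58.1 in R 4.3.3 (lmFit, eBayes, residual df 2, prior df 3.76), Benjamini-Hochberg adjustment over 19938 genes and a threshold of 0.05. The median standard error was 0.17, and the number of arrays limits the precision.

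The 10 genes and the gene lists were chosen with earlier results of these data known. Named genes are the 10, up to 4 called genes per direction from the partner, target and VEGF lists (2 where none was called) and a fixed set of ligase, coactivator, iron, glycolysis and Zfp36 family genes. Alternatives were quantile normalization, centring on the chemosensory genes, a filter at the background level, the mean over probe sets, all probe sets, removal of the loess trend on level (span 0.3), leaving out each array, a block on replicate number, and eBayes with trend and robust options. Marker counts stand beside 23.8% of all genes called higher and 6.54% lower, and 36.5% and 6.54% of genes above background. All 12 early erythroid markers lay above background, where calls of higher were more frequent. The marker lists were not set beside genes of like level. Terminal erythroid and megakaryocyte markers were also measured: 1 of 4 and 1 of 6 were called higher and 0 lower. Of the early erythroid markers 6 of 12 were called higher, of the hepatocyte markers 0 of 11 (0 higher and 1 lower at an unadjusted p under 0.05), of the endothelial and stromal markers 2 of 14 (1 lower), and of the macrophage markers 0 of 12 (2 lower; 0 higher at an unadjusted p under 0.05).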

Additional observations from a re-analysis of the deposited data

How the results depend on the processing

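Hif1a, Egln1 and Hif1an passed as higher under all 12 alternatives, though the probe set choices and the filter leave a gene with 1 probe set at the same value and move only its adjusted p. The number of HIF genes called higher was 6 as reported, 3 with quantile normalization, 3 with the trend on level removed and 3 to 6 on leaving out an array. The number called lower was 1, with 0 under chemosensory centring and 0 to 1 on leaving out an array. For partner genes the number higher was 18 as reported, 6 with quantile normalization, 2 with the trend removed and 6 to 20 without an array, and the number lower was 1 as reported, 2 with quantile normalization, 0 with centring, 2 with the trend removed and 0 to 2 without an array. For target genes the number higher was 21 as reported, 12 with quantile normalization, 5 with the trend removed and 9 to 22 without an array, and the number lower was 1 as reported, 0 with centring, 0 with all probe sets, 2 with the trend removed and 0 to 2 without an array. Over all genes 4741 were higher as reported, 2207 with quantile normalization, 1122 with the trend removed and 1724 to 5153 without an array, and 1304 were lower as reported, 553 with quantile normalization, 317 with centring and 99 to 2905 without an array. With chemosensory centring 7 HIF genes, 22 partner genes, 27 target genes and 7074 of all genes were called higher. Removing an array leaves its group with a single array, which is assumed to vary like the other group. The cause of the other shifts was not tested.

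Differences that changed sign were those of Epas1 (0.14 with quantile normalization, 0.15 with centring, 0.00467 with the trend removed), Egln3 (-0.12 with the trend removed, and -0.17 to 1.35 on leaving out an array, -0.17 being without IgG array 2), Vhl (-0.16), Vegfa (-0.0946) and Rbx1 (-0.12) with the trend removed, Hif3a (-0.0281 with quantile normalization, -0.22 with the trend removed) and Bnip3l (0.25 with centring, 0.000445 with the mean over probe sets, and -0.27 to 0.14 on leaving out an array, with 0.03 without RBP array 1 and 0.14 without IgG array 1). Of these only Vegfa had been called. With eBayes trend and robust options Vegfa missed the threshold (adjusted p = 0.0503).

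The labels number the arrays 1 and 2 in both groups without saying what the number marks. Across 19938 genes the gap between RBP arrays 1 and 2 correlated with that between IgG arrays 1 and 2 (Pearson's r = 0.255, a description across genes), and 2 pairs are too few to show pairing. With the number as a replicate block, 8 HIF genes were higher, Egln3 (limma, adjusted p = 0.0242) and Vhl (adjusted p = 0.0318) among them. In the same fit 19 partner genes and 25 target genes were higher, 2 partner genes were lower, and Tfrc passed (adjusted p = 0.0160). Over all genes 5885 were higher and 2199 lower.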

Other observations

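The lists hold 9 genes of oxygenases that use 2-oxoglutarate and iron, a group picked after their values had been seen and therefore given without a test. They are the 4 HIF hydroxylases, the collagen prolyl hydroxylases P4ha1 and P4ha2, and the histone demethylases Kdm3a, Kdm4b and Kdm4c, most of which HIF induces. Of the 9, 6 were called higher with RBP and 0 lower, with a median difference of 1.02. Beside this, 23.8% of all genes and 36.5% of genes above background were called higher. The group was not set beside genes of like level. For its 4 HIF hydroxylases, 47.5% (Hif1an) to 54.9% (Egln2) of genes of like level were called higher. The number of the 9 called higher was 8 with chemosensory centring (35.5% of all genes). It was 4 with quantile normalization (11.1% of all genes) and 2 with the trend on level removed (5.63% of all genes). It also fell without RBP array 1 or 2, as did the number over all genes. Kdm4c read 8.16 and 8.09 on the RBP arrays and 6.83 and 7.07 on the IgG arrays, a difference of 1.18 ± 0.16 (SE; limma, adjusted p = 0.0065). Kdm3a differed by 1.02 ± 0.18 (adjusted p = 0.0109) and Kdm4b by 1.05 ± 0.24 (adjusted p = 0.0246). With the trend on level removed Kdm4c (0.56, adjusted p = 0.0755), Kdm3a (0.34, adjusted p = 0.270) and Kdm4b (0.35, adjusted p = 0.394) did not pass. With quantile normalization Kdm3a (0.57, adjusted p = 0.0992) and Kdm4b (0.60, adjusted p = 0.161) did not pass, while Kdm4c did (0.87, adjusted p = 0.0268). Kdm3a did not pass when RBP array 1 (adjusted p = 0.0724) or 2 (adjusted p = 0.0644) was left out, nor Kdm4b when RBP array 1 (adjusted p = 0.144) or IgG array 1 (adjusted p = 0.0537) was. P4ha1 read 8.48 and 8.13 with RBP against 7.75 and 6.998 with IgG, without overlap (0.93 ± 0.28, adjusted p = 0.0540; 1.31 and adjusted p = 0.0132 without IgG array 1). P4ha2 lay below background, with a difference of 0.38 ± 0.16 (adjusted p = 0.122).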
